A study of Homo sapiens with 2 samples.

Results

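Fragments of Y RNAs and vault RNAs were examined in the small RNA libraries of A549 cells, a human lung adenocarcinoma line. Entries of the count table were taken as members by gene name, either the symbol in the table (entries of the type yRNA) or the GENCODE gene name of the transcript identifier (entries of the type misc_RNA). This gave 661 of the 5475 entries. They were 4 functional Y RNA genes (RNY1, RNY3, RNY4 and RNY5), 65 RNY pseudogenes, 586 unnamed Y RNA copies of the Rfam family RF00019 (Y_RNA), 4 functional vault RNA genes (VTRNA1-1, VTRNA1-2, VTRNA1-3 and VTRNA2-1) and 2 vault copies. The misc_RNA entries of the table carry transcript identifiers and no gene name, and the functional RNY genes stand under yRNA, so both types had to be read. VTRNA2-1 was taken from a Rfam vault entry (RF00006) that lies inside the annotated VTRNA2-1 gene on its strand.

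Cells grown in DMEM with 10% FCS were kept for 24 h at 20% oxygen (normoxia) or 1.2% oxygen (hypoxia) and then lysed. There was 1 library per condition, so no difference could be set against a replicate and no test or p-value is given. The table held 6449337 counts in normoxia and 13115226 in hypoxia. Of the marker miRNAs, all 6 epithelial ones were listed (825 and 898 CPM summed). Most of this sum was miR-200b (620 and 715 CPM), and each of the others was lower in hypoxia. Together miR-21 and miR-31 took 521926 and 469640 CPM, with miR-21 lower in hypoxia and miR-31 higher (15514 and 20585 CPM). The 6 blood markers summed to 31.9 and 33.9 CPM with miR-223 not listed. The 4 muscle markers summed to 0 and 1.60 CPM with miR-1 and miR-206 not listed, and liver miR-122 to 0.620 and 0.305 CPM. By comparison, miR-210, a hypoxia-induced miRNA, stood at 668 CPM under normoxia and at 1742 CPM under hypoxia. CPM is the counts-per-million scale over all counts of the table.

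Y RNAs are small noncoding RNAs made by RNA polymerase III. They bind the protein Ro60, have a role in the initiation of DNA replication, and fold so that their 5′ and 3′ ends pair in a stem, from which fragments are released in many cells. Vault RNAs are also made by RNA polymerase III and are components of the vault, a large ribonucleoprotein particle of the cytoplasm, whereas VTRNA2-1 (nc886) is known as an inhibitor of the kinase PKR and is not a vault component.

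The sequences of RNY1, RNY4 and RNY5 are given first, because the counts of copies are compared with them. They are shown as in the table, 5′ to 3′. Capitals mark a window of 30 bases that ends 4 bases before the 3′ end.
RNY1: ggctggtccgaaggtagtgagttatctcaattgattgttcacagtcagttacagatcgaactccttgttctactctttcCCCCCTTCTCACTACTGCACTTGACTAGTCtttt
RNY4: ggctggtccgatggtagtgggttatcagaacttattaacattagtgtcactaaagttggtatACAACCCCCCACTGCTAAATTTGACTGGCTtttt
RNY5: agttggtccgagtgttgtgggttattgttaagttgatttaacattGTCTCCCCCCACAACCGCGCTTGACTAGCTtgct

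These entries lie on hg19 at chr7:148684228-148684340 (RNY1), chr7:148660407-148660502 (RNY4) and chr7:148638580-148638658 (RNY5). The 4 functional RNY genes span 45761 bases, lie between the protein-coding genes EZH2 and PDIA4, and overlap no other gene of GENCODE 29. RNY1 is annotated on the minus strand, RNY3 and RNY4 on the plus strand. RNY1 and RNY3 were the most alike, with 82 identical bases (80.4% of the shorter RNA), and RNY1 and RNY5 the least, with 50 (63.3%). The longest run of identical bases between any pair of the 4 was 11 bases, so that a fragment longer than this could be told apart between the functional genes, though not from their copies.

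The functional vault RNAs are shown because they differed from each other in the direction of the ratio while sharing most of their sequence. Capitals mark a 9-base motif, GTTCGANNC, the core of the B box of RNA polymerase III promoters.
VTRNA1-1: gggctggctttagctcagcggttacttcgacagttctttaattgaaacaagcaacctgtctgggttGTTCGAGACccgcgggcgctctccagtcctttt
VTRNA1-2: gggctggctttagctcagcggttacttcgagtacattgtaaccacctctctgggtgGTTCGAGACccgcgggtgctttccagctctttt
VTRNA1-3: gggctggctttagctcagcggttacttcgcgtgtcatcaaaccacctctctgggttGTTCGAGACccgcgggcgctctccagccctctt
VTRNA2-1: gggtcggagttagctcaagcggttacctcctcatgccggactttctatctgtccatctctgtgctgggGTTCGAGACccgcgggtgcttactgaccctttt

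VTRNA1-1, VTRNA1-2 and VTRNA1-3 lie within 1 cluster at chr5:140090860-140090958, chr5:140098510-140098598 and chr5:140105743-140105831 (hg19), 7551 and 7144 bases apart, between ZMAT2 and PCDHA1. VTRNA2-1, at chr5:135416186-135416286, lies between TGFBI and SMAD5. VTRNA1-1 shared 82 bases with VTRNA1-3 (92.1% of the shorter RNA) and 81 with VTRNA1-2 (91.0%), with identical runs of 34 and 30 bases. VTRNA2-1 shared 72 bases with VTRNA1-1 (72.7%). The motif was searched on both strands of the entries of 75 to 120 bases. All 4 functional vault RNAs held it, as did 124 of 174 nuclear tRNA entries (71.3%), against 2 of 647 Y RNA entries (0.309%) and 6 of the 1514 remaining entries (0.396%). Neither of the 2 vault copies held these letters.

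Y RNA and vault RNA entries took 3.19% (95% interval, 3.18 to 3.21%) of all counts in the normoxia library and 3.34% (3.33 to 3.35%) in the hypoxia library. The interval of a share is the exact Clopper-Pearson one, and that of a ratio comes from the exact binomial distribution of the counts between both libraries. They cover the counting error of reads only. PCR reads without molecular identifiers are not independent molecules, so the intervals are too narrow even for the sampling of molecules. Nearly all of these counts fell on Y RNA entries, with 3.15% of all counts in normoxia and 3.28% in hypoxia. Vault entries took 0.0473% and 0.0673%. Of the counts under misc_RNA, the members of that type took 61.0% in normoxia and 60.8% in hypoxia, mostly Y_RNA copies (57.4% and 56.1%). By comparison, 3 single entries took 27.7% and 27.6% together, beside the 607 entries of the members. They were those of RPPH1, the RNA of RNase P, of RMRP, the RNA of RNase MRP, and of 7SK RNA.

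The Y RNA counts were divided between functional genes and copies. The functional RNY genes took 1.17% (1.16 to 1.18%) of all counts under normoxia and 1.19% (1.184 to 1.196%) under hypoxia, the RNY pseudogenes 1.08% and 1.18%, and the Y_RNA copies 0.8996% and 0.9096%. Counts were concentrated on few entries. The 10 most abundant members held 60.5% of the members' counts in normoxia and 62.0% in hypoxia, while the median member had 11 and 21 counts. In normoxia 26 members had no count, which allows up to 0.465 CPM, and in hypoxia 2 members had none, which allows up to 0.229 CPM. The sources used here do not say how reads matching several copies were counted, so the division between a functional gene and its near-identical copies is uncertain for every Y RNA value below.

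RNY5 was the most abundant of the functional Y RNAs. Its 46038 counts in the normoxia library gave 7138 CPM (95% interval, 7074 to 7204), and its 88756 counts in the hypoxia library gave 6767 CPM (6723 to 6812). RNY1 had 14313 and 34224 counts (2219 and 2609 CPM), RNY4 had 11081 and 26603 counts (1718 and 2028 CPM), and RNY3 had 4009 and 6486 counts (622 and 495 CPM). Per base of length, the level of RNY5 was 90.4 CPM in the normoxia library and 85.7 CPM in the other, that of RNY1 19.6 and 23.1 CPM, that of RNY4 17.9 and 21.1 CPM, and that of RNY3 6.09 and 4.85 CPM. The order RNY5, RNY1, RNY4, RNY3 was thus the same in both libraries, with and without the correction for length. RNY5 took 61.0% of the counts of the functional Y RNAs in normoxia and 56.9% in hypoxia.

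**Figure D1:**
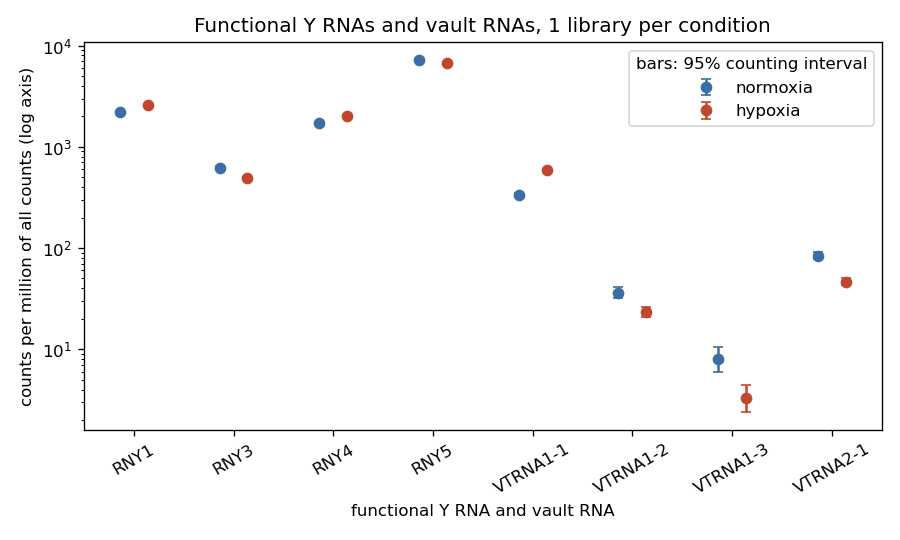
Level of the 8 functional Y RNAs and vault RNAs in the normoxia and hypoxia library, in CPM of all counts on a log axis. Points are single libraries and bars are 95% counting intervals. RNY5 was the highest at 7138 and 6767 CPM, and VTRNA1-1 was the only vault RNA with a higher level in hypoxia, at 334 and 586 CPM.

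The functional Y RNAs were not all on the same side of an equal share. The log2 ratio of the share in hypoxia over that in normoxia was 0.23 for RNY1 (95% interval, 0.21 to 0.26) and 0.24 for RNY4 (0.21 to 0.27), whereas it was -0.08 for RNY5 (-0.09 to -0.06) and -0.33 for RNY3 (-0.39 to -0.27). The interval of RNY1 overlapped that of RNY4 and lay outside those of RNY3 and RNY5. The scalings tried lowered all log2 ratios by nearly the same amount, at most from 0.07 to -0.05 for all members. Such shifts were too small to turn the signs of RNY1 and RNY4 and could not turn those of RNY3 and RNY5. The kept signs are therefore no check on direction. The median log2 ratio of all 1639 entries with a mean log2 CPM above 3 was 0.13, and TMM scaling moved it to 0.01. Relative to that median, RNY1 stood at 0.11, RNY4 at 0.11, RNY5 at -0.20 and RNY3 at -0.46. For the 4 genes together the log2 ratio was 0.02 (0.01 to 0.04), which turned to -0.09 with TMM, and to 0.17 without RNY5.

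Summed, the functional vault RNAs had fewer counts than the functional Y RNAs in both libraries, and VTRNA1-1 held most of them. In hypoxia, however, VTRNA1-1 stood above RNY3, at 5.92 against 4.85 CPM per base of length. Its 2156 counts in the normoxia library gave 334 CPM (320.3 to 349), and its 7684 counts in the hypoxia library gave 586 CPM (573 to 599). VTRNA2-1 had 542 and 609 counts (84.0 and 46.4 CPM), VTRNA1-2 had 234 and 307 counts (36.3 and 23.4 CPM), and VTRNA1-3 had 52 and 43 counts (8.06 and 3.28 CPM). The hypoxia library was thus higher than the normoxia library for VTRNA1-1 and lower for the other 3, as counted. How reads from runs shared by VTRNA1-1, VTRNA1-2 and VTRNA1-3 were assigned is not stated in the sources used. Per base of length the levels were 3.38 and 5.92 CPM for VTRNA1-1, 0.832 and 0.460 CPM for VTRNA2-1, 0.408 and 0.263 CPM for VTRNA1-2 and 0.0906 and 0.0368 CPM for VTRNA1-3, an order that was the same in both libraries.

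The log2 ratio of VTRNA1-1 was 0.81 (0.74 to 0.88), short of the size of 0.9 used below. It was -0.63 for VTRNA1-2 (-0.88 to -0.38), -0.85 for VTRNA2-1 (-1.03 to -0.69) and -1.25 for VTRNA1-3 (-1.92 to -0.69), the last with a mean log2 CPM of 2.42 and so under the filter. None of these 4 intervals held 0. The scalings lowered every ratio, and by too little to turn that of VTRNA1-1, so the kept signs are no check on direction. Reads within the runs of 29 to 34 bases shared by VTRNA1-1, VTRNA1-2 and VTRNA1-3 fit more than 1 of these genes. Their ratios are therefore not independent, and the division of counts among them is uncertain. VTRNA1-1 took 72.3% of the counts of the functional vault RNAs in normoxia and 88.9% in hypoxia. The log2 ratio of the 4 together, 0.51 (0.45 to 0.57), rested on VTRNA1-1 and was -0.81 without it. In counts, VTRNA1-1 exceeded VTRNA1-2 by 9.21 times in normoxia and 25.03 times in hypoxia.

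The 2 vault copies had few counts. VTRNA3-1P, a pseudogene on chromosome X between HSD17B10 and HUWE1 (chrX:53489150-53489251), had 67 and 177 counts (10.4 and 13.5 CPM), with a log2 ratio of 0.37 whose interval, -0.04 to 0.81, held 0. A Rfam vault entry in an intron of INO80D (chr2:206872604-206872698) had 2 and 12 counts, and its difference was not detectable at this depth.

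The copies of Y RNAs, 651 entries in all, were each aligned to the 4 functional Y RNAs and assigned to the one with the largest share of identical bases. The nearest was RNY3 for 293 copies, RNY1 for 265, RNY4 for 88 and RNY5 for 5. The number of copies did not follow the order of their counts. The 88 copies nearest RNY4 had 81739 counts in normoxia and 181700 in hypoxia, the 265 nearest RNY1 had 33231 and 70154, the 293 nearest RNY3 had 11889 and 20325, and the 5 nearest RNY5 had 660 and 1315. For each count on RNY4 itself there were 7.38 counts on its copies in normoxia and 6.83 in hypoxia. The corresponding values were 2.97 and 3.13 for RNY3, 2.32 and 2.05 for RNY1, and 0.0143 and 0.0148 for RNY5. With copies included, the entries nearest RNY4 summed to 14392 CPM in normoxia and 15883 CPM in hypoxia, above those nearest RNY1 (7372 and 7959 CPM) and RNY5 (7241 and 6868 CPM). RNY5, the highest single entry, thus had the fewest counts on copies.

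**Figure D2:**
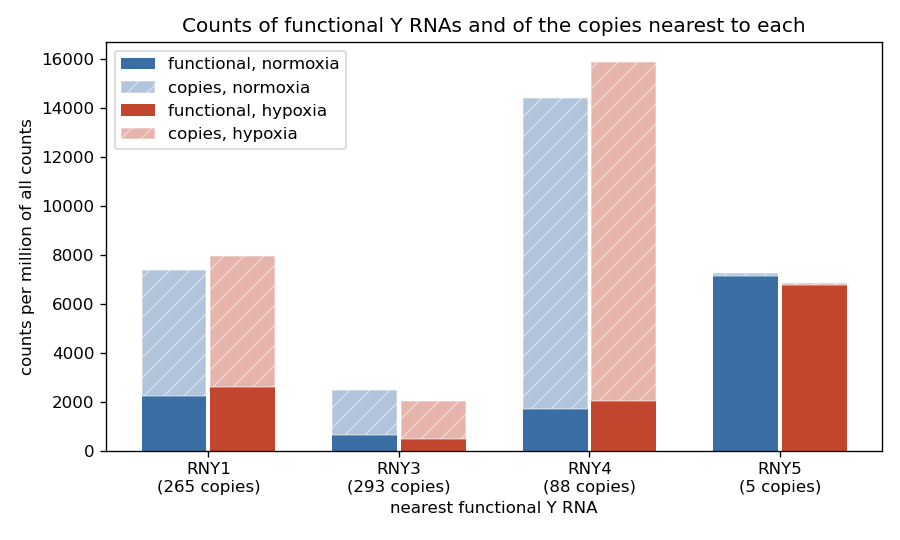
CPM of all counts for each functional Y RNA (solid) and for the copies nearest to it (hatched), by library. The number of copies stands under each name. Copies made up 88.1% and 87.2% of the RNY4 bars and 1.41% and 1.46% of the RNY5 bars in normoxia and hypoxia.

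The 10 most abundant copies were nearest RNY4 in 8 cases and nearest RNY1 in 2. Of these, 7 lie in an intron of a protein-coding gene, 1 in an intron of a lincRNA gene and 2 in no other gene. Sequences of 7 of them are given to show how much of the 3′ window each holds. Capitals mark bases that align with, and are identical to, the 30-base 3′ window of the nearest functional RNA.
Y_RNA copy ENST00000364409: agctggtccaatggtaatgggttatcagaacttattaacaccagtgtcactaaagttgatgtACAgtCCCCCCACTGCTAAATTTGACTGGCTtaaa
RNY4P1: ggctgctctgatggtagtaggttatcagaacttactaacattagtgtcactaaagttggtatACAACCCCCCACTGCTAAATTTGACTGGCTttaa
RNY4P8: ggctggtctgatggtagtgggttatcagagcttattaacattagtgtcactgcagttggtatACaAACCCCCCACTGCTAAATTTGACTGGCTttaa
RNY4P10: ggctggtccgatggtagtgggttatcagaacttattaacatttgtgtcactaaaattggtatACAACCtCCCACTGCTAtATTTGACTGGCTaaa
RNY4P31: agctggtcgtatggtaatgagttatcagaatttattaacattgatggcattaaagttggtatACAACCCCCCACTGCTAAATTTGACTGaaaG
Y_RNA copy ENST00000364930: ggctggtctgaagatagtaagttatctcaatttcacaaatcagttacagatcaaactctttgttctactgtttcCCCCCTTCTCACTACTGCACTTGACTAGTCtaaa
Y_RNA copy ENST00000410577: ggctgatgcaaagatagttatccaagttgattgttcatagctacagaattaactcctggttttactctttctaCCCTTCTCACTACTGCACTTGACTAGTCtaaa

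The highest was a Y_RNA copy at chr11:3685045-3685141 (ENST00000364409), in an intron of ART1 on the opposite strand, with 12528 counts in normoxia and 27926 in hypoxia (1943 and 2129 CPM). It had 29 of the 30 bases of the RNY4 window and more counts than RNY4 in both libraries. RNY4P1, in an intron of TRPM6 (chr9:77462422-77462517), had all 30 bases of the window and 11043 and 27062 counts, close to the 11081 and 26603 counts of RNY4. RNY4P8, in an intron of WIPF2 (chr17:38399475-38399571), and RNY4P5, in an intron of TBC1D31, also had all 30 bases, with 7687 and 18742 counts and with 7194 and 15573 counts. Identity of the window did not by itself fix the count, since a Y_RNA copy on chromosome 12 (ENST00000364338) with all 30 bases had 8 and 30 counts.

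RNY4P10, in an intron of RXRB on the opposite strand (chr6:33167378-33167472), had 28 window bases and 4119 and 11507 counts. RNY4P7, in an intron of WDR33 on the same strand, had 29 and 4721 and 10897 counts. RNY4P31 (chr13:61390831-61390923), in no other gene, had 4588 and 8741 counts, and RNY4P11, in an intron of the lincRNA gene AL049646.1, had 3491 and 7122 counts. The copies nearest RNY1 were a Y_RNA copy in an intron of SNX4 on the opposite strand (ENST00000364930, chr3:125235823-125235930), with all 30 bases and 5254 and 10363 counts, and one in no other gene (ENST00000410577, chr2:171639677-171639781), with 28 bases and 4823 and 9310 counts. All 10 held at least 28 bases of the 3′ window, while at the 5′ end they matched between 22 and 30 bases of the first 30.

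Across copies, counts were set against the likeness of each end. Among the 88 copies nearest RNY4, the median of the counts summed over both libraries was 22767 for the 5 copies with 30 matching bases, 6683 for the 10 with 29, 731 for the 15 with 28, 69 for the 44 with 25 to 27 and 14.5 for the 14 with 24 or fewer. Among the copies nearest RNY1 the medians were 768 for the 7 with 30 matching bases, 404 for the 43 with 29, 117 for the 53 with 28, 25 for the 127 with 25 to 27 and 9 for the 35 with 24 or fewer. Among those nearest RNY3 they were 229 for 19 copies, 58.5 for 56, 20 for 77, 11 for 128 and 12 for 13. In the 5′ window, the copies nearest RNY4 had medians of 9425.5 for the 4 with 30 matching bases, 987.5 for the 12 with 29, 41.5 for the 18 with 28, 60 for the 42 with 25 to 27 and 74 for the 12 with 24 or fewer. Those nearest RNY3 ranged from 13 counts with 24 or fewer bases to 255 with 30 (5 copies), and those nearest RNY1 from 32.5 with 24 or fewer to 110 with 29 (12 copies).

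Spearman's rho between the counts and the matching bases of the 3′ window was 0.56 over 265 copies nearest RNY1, 0.49 over 293 nearest RNY3 and 0.58 over 88 nearest RNY4. For the first 30 bases it was 0.07, 0.32 and 0.33, and for the bases between both windows 0.10, -0.01 and 0.11. For identity over the whole sequence it was 0.29, 0.35 and 0.55, so that for the copies nearest RNY4 the whole sequence gave nearly the same value as the 3′ window. The points share libraries, and copies alike in sequence can share reads, so these values only describe the table. One copy stood apart. RNY3P6 (chr13:100188573-100188650), named here after its values were seen, had 1376 and 3110 counts, the most among the copies nearest RNY3. It is 78 bases long against 102 in RNY3, matched all 30 bases of the 5′ window, and its 3′ end was left unaligned, with 0 of 30 matches.

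**Figure D3:**
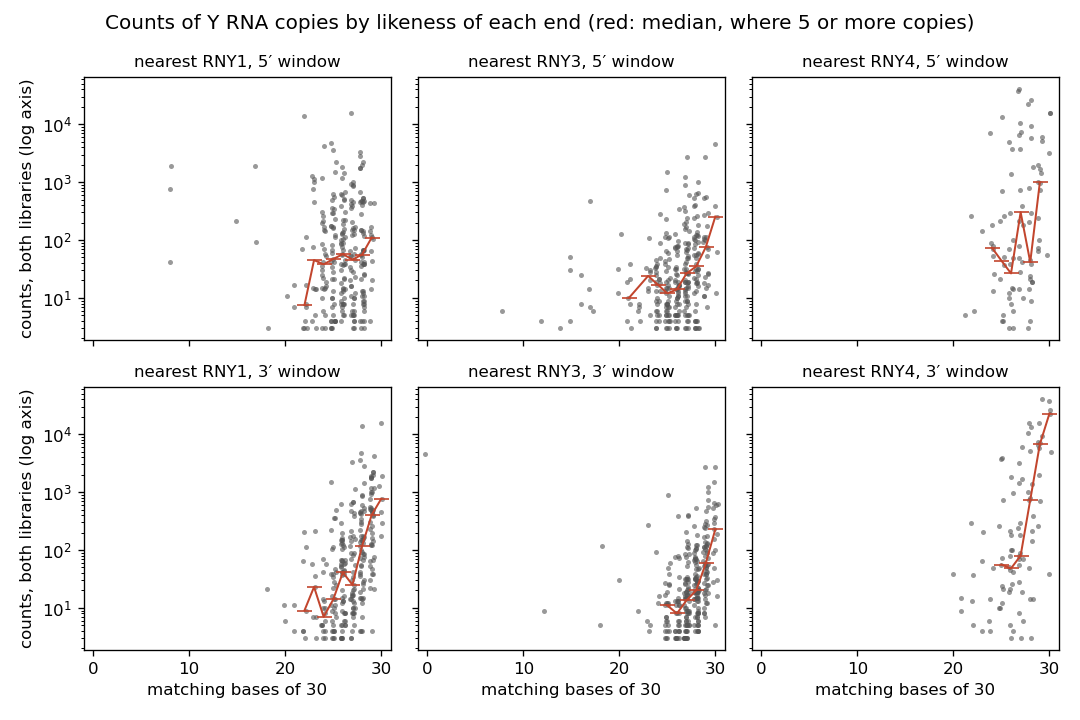
Counts summed over both libraries (log axis) of the copies nearest RNY1, RNY3 and RNY4 against the number of identical bases, of 30, in the 5′ window (top) and in the 3′ window (bottom). Points are copies, spread sideways to be seen, and red marks are medians where at least 5 copies share a value. For copies nearest RNY4 the median was 22767 counts at 30 matching bases of the 3′ window and 6683 at 29, against 9425.5 (4 copies, no mark drawn) and 987.5 for the 5′ window.

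The summed copies were on the same side of an equal share as the functional RNA they resemble, except that with TMM those nearest RNY1 turned to -0.06. For copies nearest RNY4 the log2 ratio of summed shares was 0.13 (0.12 to 0.14, and 0.01 with TMM), beside 0.24 for RNY4 itself. It was 0.05 (0.04 to 0.07) for copies nearest RNY1, beside 0.23 for RNY1, and -0.25 (-0.28 to -0.22, and -0.37 with TMM) for copies nearest RNY3, beside -0.33 for RNY3. For copies nearest RNY5 it was -0.03 with an interval of -0.17 to 0.11, which held 0. Of the copies with a mean log2 CPM above 3, 30 of 41 nearest RNY4 and 51 of 77 nearest RNY1 had a log2 ratio above 0, against 8 of 35 nearest RNY3, which is 73.2%, 66.2% and 22.9%. Of all 1639 entries past this filter, 1012 (61.7%) were above 0, a share near that of the copies nearest RNY1. With TMM the counts of copies were 23, 40 and 6, beside 840 of all 1639 entries. For all Y copies together the log2 ratio was 0.08 (0.07 to 0.09), and -0.04 with TMM. Reads that match both a gene and its copies cannot be told apart in these counts, so the values of a gene and of its copies are not independent.

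Members were then counted by size. An entry with a mean log2 CPM above 3 passed as higher or lower in hypoxia if its log2 ratio, computed with a prior count of 2, reached 0.9 or -0.9. Of the 661 members, 163 passed the filter on level. Of these, 2 were higher in hypoxia and 4 lower, which is 1.23% and 2.45%. Of all entries of the table past the filter, 5.74% were higher and 3.29% lower. With TMM the members split into 1 higher and 8 lower, and the table into 63 higher and 72 lower. The median log2 ratio of the 163 members was 0.08, beside 0.13 for all entries past the filter.

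All 6 members past the size rule were copies. Among the copies past the filter on level, the highest ratios were those of Y_RNA copies nearest RNY1. One in an intron of WDR89 (ENST00000384095, chr14:64088478-64088589) had 213 and 952 counts and a log2 ratio of 1.13 (0.92 to 1.36), and one in an intron of LRSAM1 (ENST00000363918, chr9:130233154-130233266) had 70 and 288 counts with a log2 ratio of 1.00 (0.64 to 1.41). The third among the copies past the filter, in an intron of ABRAXAS2 (ENST00000384763), had 64 and 230 counts. Its log2 ratio was 0.81, short of the threshold like VTRNA1-1. The lowest past the filter was RNY1P12, in an intron of ZBTB11 on the same strand (chr3:101380904-101381008). It had 176 and 131 counts and a log2 ratio of -1.43 (-1.79 to -1.12). The other 3 were copies nearest RNY3 that matched all 30 bases of its 3′ window. They had 325 and 333 counts (ENST00000363636, in an intron of CCDC85C), 179 and 188 counts (ENST00000363651) and 300 and 322 counts (ENST00000384413), with log2 ratios of -0.98, -0.94 and -0.92.

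**Figure D4:**
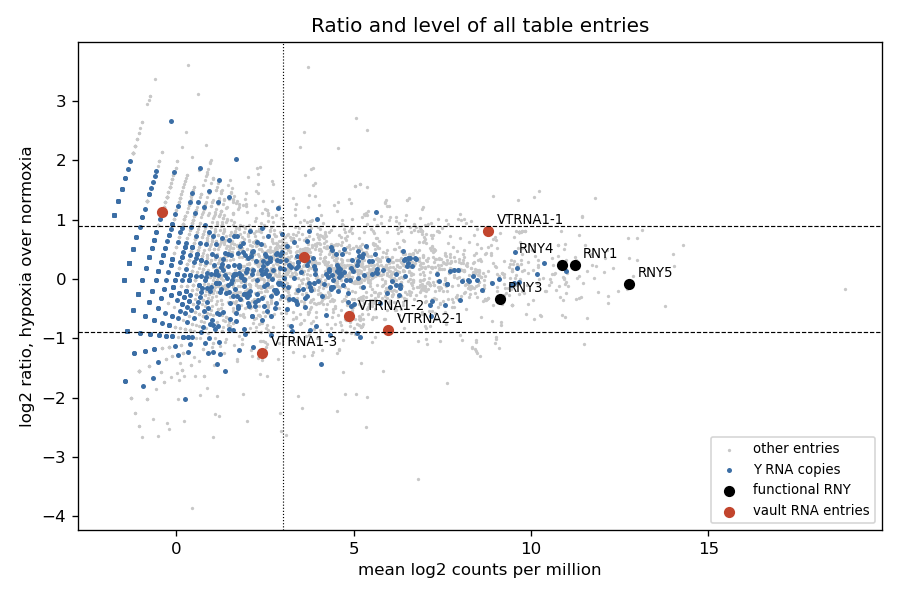
Log2 ratio of hypoxia over normoxia against the mean log2 CPM for all 5475 entries (grey), with Y RNA copies in blue, functional Y RNAs in black and vault RNA entries in red. Dashed lines mark the size of 0.9 in both directions and the dotted line the filter at 3. The functional Y RNAs sit between -0.33 and 0.24, and VTRNA1-1 at 0.81 is apart from VTRNA1-2 at -0.63 and VTRNA2-1 at -0.85.

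Other transcripts of RNA polymerase III were set beside the members. The functional RNY genes (0.02), the Y_RNA copies (0.02, -0.10 with TMM) and 7SK RNA with its copies (0.05, interval 0.01 to 0.08) had log2 ratios of shares near 0. The RNY pseudogenes stood higher, at 0.13 (0.11 to 0.14, and 0.01 with TMM). RMRP stood at -0.10 (-0.13 to -0.06), RPPH1 and its copies at 0.16 (0.13 to 0.19), 7SL RNA and its copies at -0.18 (-0.25 to -0.10) and nuclear tRNA at -0.20 (-0.20 to -0.19). The functional vault RNAs, at 0.51, lay below 5S rRNA and its copies at 0.73 and U6 snRNA and its copies at 1.24 (1.17 to 1.30). The intervals of the functional Y RNAs and of these last 3 classes did not overlap. The misc_RNA entries outside the members stood at 0.06 (0.04 to 0.07).

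**Figure D5:**
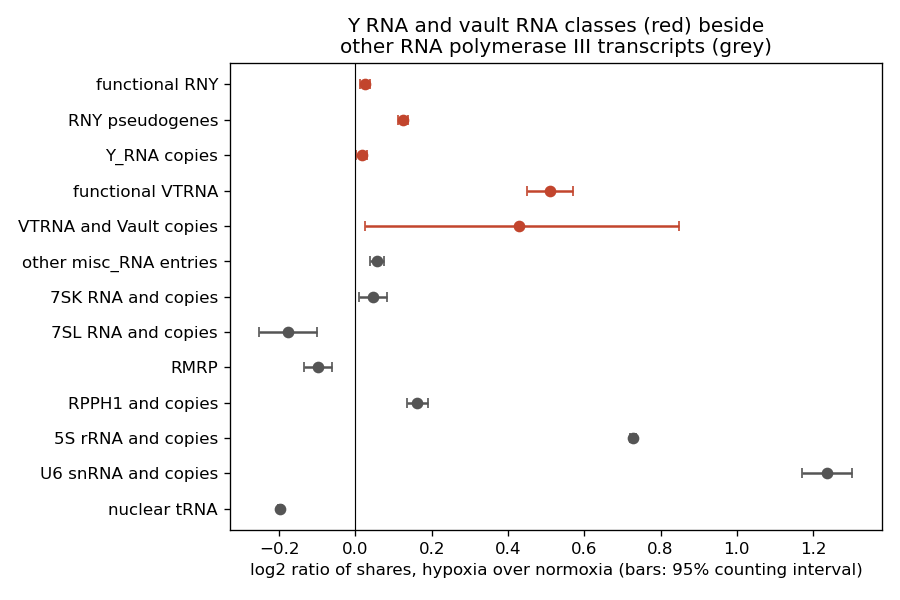
Log2 ratio of the share of all counts, hypoxia over normoxia, for the Y RNA and vault RNA classes (red) and for other RNA polymerase III transcripts and the remaining misc_RNA entries (grey). Points are summed classes and bars are 95% counting intervals. The functional RNY genes sit at 0.02, the functional vault RNAs at 0.51 and U6 snRNA at 1.24.

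Entries of other annotation sets were searched for Y RNA and vault RNA sequence. Of 1183 entries of 15 to 59 bases, 1 piRNA entry (FR283482, chr14:23318402-23318427) held a run of 24 bases of RNY4, positions 67 to 90 counted from its 5′ end and inside its 3′ window. It is printed with that run in capitals because it shows the 3′ end of a Y RNA under another name.
FR283482: CCCCCCACTGCTAAATTTGACTGGtt

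This entry had 71 counts in normoxia and 170 in hypoxia, and its 26 bases also stand whole in 1 Y_RNA copy (ENST00000459091, chr9:72926523-72926617), which had 2684 and 4774 counts. The next longest run, 14 bases of RNY3, was in miR-3135b. No entry of the table overlapped a member by position.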

How the data were processed

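Small RNA was sequenced from 1 normoxia and 1 hypoxia library of A549 cells (2 µg of total RNA, 11 and then 4 PCR cycles, selection of library molecules of 105 to 130 nt). The authors deposited raw counts, not normalized, for 5475 features. For SOLiD data their methods name LifeScope with its small RNA pipeline and miRBase, without naming this experiment. The build is hg19 per the submitters' processing notes. No listed feature had fewer than 3 counts in sum. The treatment of strand and of reads with several matches is not stated in the sources used.

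Of 1091 misc_RNA entries, 993 had a GENCODE 29 name by transcript identifier, and names of the 54 yRNA entries were read from the table (38 were also in GENCODE 29). The members and lists were chosen with earlier results of these data known. Shares are of all counts, and the log2 ratio of a class is that of its summed shares. For the rule of size and single copies, log2 CPM had a prior count of 2. Named were the functional genes, the 10 copies with the most counts, the 3 largest and 3 smallest ratios past the filter, and both vault copies. Other scalings (edgeR 4.0.16, DESeq2 1.42.0, R 4.3.3) kept the geometric mean of the totals. Copies were aligned globally with free end gaps (Biopython 1.88). Host genes came from GENCODE 29 by transcript identifier or, where the identifier was absent, from RefSeq by symbol. Python 3.11.15 and scipy 1.17.1 gave the intervals. The calculation was tested on simulated data. The sequence of 1 functional Y RNA is not reported here.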

Additional observations from a re-analysis of the deposited data

Results flagged for a closer look

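Counts were also present in entries that the comparisons did not use, above the limit of 3 counts that a count of 0 allows. Of 98 misc_RNA entries without a GENCODE 29 name, 38 were at least 80% identical to a functional Y RNA, and these held 3987 counts in normoxia and 8993 in hypoxia. The most abundant (ENST00000363271, chr9:34194810-34194905) had 1546 and 4089 counts. The piRNA entry with a run of RNY4 had 71 counts in normoxia and 170 in hypoxia.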

How the results depend on the processing

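Each condition has 1 library, so no library could be left out and no paired analysis was possible because there are no replicate numbers to pair. The share of all members, 3.19% in normoxia and 3.34% in hypoxia, depended on what it was set against: 61.0% and 60.8% of misc_RNA counts for the members of that type, 83.9% and 84.0% of misc_RNA and yRNA counts, 10.7% and 9.75% outside miRNA features, 6.55% and 6.50% without the 13 features that were among the 10 most abundant of either library, which also removes RNY5 from the members (8.43% and 8.15% with RNY5 kept as a member), and 3.32% and 3.58% outside rRNA features. With misc_RNA entries only it was 0.957% and 0.985%, with the unnamed entries like a Y RNA 3.26% and 3.41%, and without RNY5 2.48% and 2.67%.

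The log2 ratio of all members, 0.0655, became -0.0491 with TMM over all features, 0.0454 with TMM over mature miRNAs, -0.0358 with DESeq2 size factors, 0.0175 by misc_RNA counts, -0.0486 scaled without the 10 most abundant features but with RNY5 kept as a member, 0.00147 by misc_RNA and yRNA counts, and 0.104 without RNY5. In the same order, that of the functional RNY genes (0.0247) became -0.0899, 0.00463, -0.0765, -0.0233, -0.0893, -0.0393 and 0.171. That of all Y copies (0.0768) became -0.0378, 0.0567, -0.0245, 0.0288, -0.0373 and 0.0128 under the scalings. That of the functional vault RNAs (0.51) became 0.40 with TMM over all features, 0.41 with DESeq2, 0.40 without the 10 most abundant features, 0.45 by misc_RNA and yRNA counts, and -0.81 without VTRNA1-1. The sign of the ratios of all members, of the functional RNY genes and of all Y copies thus changed with the scaling.

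The 2 members higher and 4 lower by the rule of size (94 and 54 of all 1639 entries) became 1 and 8 with TMM over all features and without the 10 most abundant features (63 and 72 of all entries). With 2 still higher, 7 were lower with DESeq2 (67 and 67 of all entries), by misc_RNA counts (83 and 59) and by misc_RNA and yRNA counts (78 and 61). Without the filter there were 61 higher and 50 lower of 661 members, beside 991 and 388 of all 5475 entries. With a threshold of 1 there were 2 higher and 1 lower, beside 67 and 42 of all 1639. For the single named members, 199 of 208 alternative ratios kept their sign, and those that did not were of RNY4P5 and RNY4P11. Their main ratios were 0.09 and 0.005. The scalings moved all ratios by too little to turn larger ones, so this count is no check on direction. The rho of counts with the 3′ window was 0.43, 0.41 and 0.54 with the last 30 bases in its place, and 0.39, 0.30 and 0.33 with the longest identical run, for copies nearest RNY1, RNY3 and RNY4. The alternatives with misc_RNA entries only, the unnamed entries, misc_RNA and yRNA counts together, and the last 30 bases were chosen after seeing the data.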

Other observations

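Of the 50 RNY pseudogenes listed under yRNA, 25 were on chromosome 13, whereas none of the 586 Y_RNA copies was listed on that chromosome. These groups differ in how they were named, so this does not show a clustering of Y RNA copies there. RNY5P1 and RNY5P8, pseudogenes of RNY5, held most of the counts nearest RNY5 outside the gene itself, with 439 and 868 counts and with 191 and 382 counts in normoxia and hypoxia.

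Some copies could not be told apart by sequence. The same 112 bases were listed at 2 places of chromosome 9, ENST00000459194 with 157 and 335 counts and ENST00000459296 with 13 and 25 counts in normoxia and hypoxia, so that identical entries did not receive equal counts. On chromosome 7, the other 9 entries that shared a sequence with another member had 14 or fewer counts in each library. In addition, 8 members with at least 50 counts had the same pair of counts as another member of different sequence. For example, a copy nearest RNY3 and a copy nearest RNY1 both had 34 and 89 counts. How many such ties low counts would give by themselves was not computed.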
